A study of Mus musculus with 1 sample.

Results

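The S phase genes are 40 genes whose transcripts build up while a cell copies its DNA, a list in common use for placing single cells in the cell cycle. They were taken by name, with earlier results of these data known, from the 11918 genes listed for a library of 2055 lung alveolar macrophages (AMs). AMs live in the airspaces and take up surfactant and inhaled particles. All 40 had at least 1 unique molecular identifier (UMI, a tag that lets each captured transcript be counted once), and together they held 6015 of the 7222978 UMIs of the library, or 0.0833%. The AMs were sorted as CD45+CD11c+SiglecF+ cells from the lung of a wild-type mouse (Hdac3fl/fl, which carries loxP sites in Hdac3 but no Cre), of FVB/NJ origin crossed back to C57BL/6 for 10 generations and aged 8 to 12 weeks. The labels name no treatment. 5000 sorted cells were loaded for 3' single-cell RNA sequencing. The study describes 1 mouse for this library, so no value below has an error between mice and no test between groups of mice was possible. Intervals are 95% exact intervals and cover counting error only. The library of AMs lacking Hdac3 was not analysed here.

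Cells replicate their DNA in S phase, between the growth phase G1 and the phases of preparation for division and mitosis, G2 and M. During G1 the MCM helicase is loaded at origins, and in S phase it is started by its partners Cdc45 and GINS, after which polymerases, the sliding clamp PCNA and a supply of deoxynucleotides and histones carry the forks along. Many of these genes are switched on together at the border of G1 and S by transcription factors of the E2F family. AMs are known to maintain themselves in the adult lung largely by local division, at a low rate when undisturbed, and most of them rest outside the cell cycle.

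Because E2F proteins bind a short, well known DNA word, the promoters of the members were read for it. The word was searched as TTTCCCGC, TTTCGCGC, TTTGCCGC and TTTGGCGC on both strands of the 250 bases before the start site in the RefSeq promoters of GRCm38.p6, the build on which the reads were aligned (mm10). A promoter entry was matched for 30 members, and 9 of them (30%) held at least 1 such word, against 2.16% of all 27025 genes with an entry. The share was 23.5% among 34 other DNA replication genes and 6.52% among 46 G2/M genes. The first match from the upstream end in each of the 9 members is printed in the direction of the gene, with the word or its reverse complement in capitals, to show how closely the words resemble each other and how they differ around the core of G and C.
Mcm6 (chr1:128359797-128359826, minus strand): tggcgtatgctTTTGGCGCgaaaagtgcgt
Dtl (chr1:191575545-191575563, minus strand): cgtgacgtcagTTTGGCGC
Cdca7 (chr2:72476137-72476166, plus strand): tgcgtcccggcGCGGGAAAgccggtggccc
Casp8ap2 (chr4:32615283-32615312, plus strand): aagtaccagagTTTGGCGCcaactggaatc
Mcm5 (chr8:75109345-75109374, plus strand): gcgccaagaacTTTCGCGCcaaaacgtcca
Cdc6 (chr11:98908002-98908031, plus strand): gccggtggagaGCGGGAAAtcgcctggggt
Uhrf1 (chr17:56304117-56304146, plus strand): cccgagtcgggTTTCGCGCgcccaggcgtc
Hells (chr19:38930917-38930946, plus strand): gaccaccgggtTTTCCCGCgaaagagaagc
Pola1 (chrX:93632275-93632304, minus strand): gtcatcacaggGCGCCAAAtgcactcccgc

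In Mcm6 and Mcm5 another match overlaps the printed one on the other strand, and Mcm6 has a separate one at position -47 from the start site. In the GENCODE M21 annotation the windows of Cdc6, Uhrf1 and Hells and 8 bases of that of Cdca7 lie inside the annotated gene, and the other 5 lie upstream of it. The other words searched were TTTGAA, the cell cycle homology region known from genes of G2 and M, and CCAAT, both also on either strand. TTTGAA was in 20% of the members with an entry, in 43.5% of the G2/M genes and in 18.3% of all genes. CCAAT was in 70% of the members, in 76.1% of the G2/M genes and in 37.5% of all genes. These matches describe the letters of the promoters only, and binding was not measured.

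Most S phase genes were found in few cells. A member was found in a median of 75 cells, 15 members were found in under 50 cells, and 5 were found in over 10% of the cells. The most widely found member was Pcna (chromosome 2, 132249162 to 132253314), which encodes the sliding clamp, with 1193 UMIs in 740 cells (36.0%, interval 33.9% to 38.1%) and up to 12 UMIs in a cell. Slbp, which encodes the protein that binds the stem-loop of replication-dependent histone mRNA, followed with 814 UMIs in 595 cells (29.0%). Usp1, a deubiquitinase that acts on PCNA, was found in 342 cells, the histone chaperone gene Nasp in 270 and Gmnn, which encodes the licensing inhibitor geminin, in 247. At the low end were Dscc1 (15 cells), which encodes a subunit of an alternative clamp loader, Dtl (12), an adaptor for the destruction of licensing factors, the licensing factor gene Cdc6 (11) and the nuclease gene Exo1 (8). These 4 had under 20 UMIs in the library and were not compared between cells, which left 36 members.

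Detection of a gene follows the depth of a cell, which ranged from 1143 to 8603 UMIs with a median of 3278. If each UMI of a cell fell on a gene at the gene's share of the whole library, a member would be found in a number of cells set by depth alone. For 37 members the observed number was at least 0.8 of that expectation. The lowest of the other 3 was Rrm2 (chromosome 12, 24708241 to 24714146), which encodes the small subunit of ribonucleotide reductase, the enzyme that makes deoxynucleotides. It was found in 110 cells where depth gave 231, 0.476 of the expectation, and 58 of these cells held at least 2 of its 248 UMIs, with up to 10 in a cell. Ccne2, which encodes cyclin E2, stood at 0.767 and Uhrf1, which encodes a factor that carries DNA methylation over to the new strand, at 0.774. Pcna stood at 0.848 and Slbp at 0.910, and Ubr7, a member with 85 UMIs, at 1.00. The UMIs of Rrm2 were thus gathered in few cells. Ubr7 was found in as many cells as depth gave, which for so few UMIs does not show which cells they fell in.

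The number of S phase genes found together in a cell was then counted. A cell held a mean of 2.30 members (median 2, highest 21), with a variance of 7.94 against 3.06 expected from depth and the gene shares. Both ends of the distribution were heavier than the expectation. No member was found in 394 cells against 193 expected, and 98 cells held at least 8 members against 19.7 expected. The size of the excess at the low end depended on the expectation. At least 1 member was found in 1661 cells, against 1862 expected from the gene shares. A setting chosen after seeing the data fixed the expectation of each gene to the cells in which it was found. It gave 1804 cells with at least 1 member and 10.5 with at least 8. At 10 members the expectation from the gene shares was under 5% of the observed number, with 70 cells observed against 1.85 expected. Cells with at least 10 members are called cells with several S phase genes from here on. They made up 3.41% of the library (interval 2.66% to 4.28%). In 6 cells 21 members were found, with 32 to 44 member UMIs in each.

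**Figure D1:**
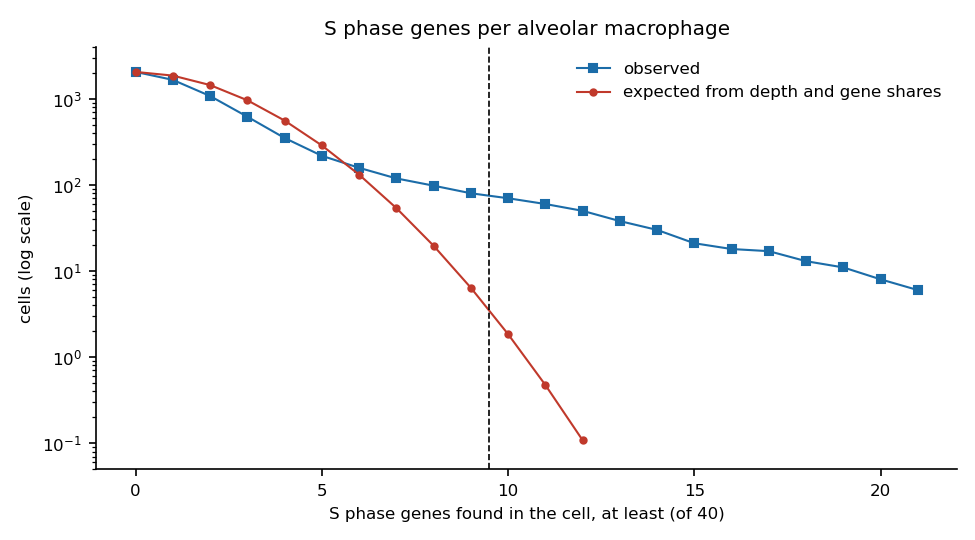
Number of AMs (y axis, log scale) in which at least the given number of the 40 S phase genes was found (x axis), with the observed number as squares and the number that follows from the UMIs of each cell and the share of each gene as circles. The dashed line marks 10 genes, beyond which 70 cells were observed and 1.85 expected.

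The cells with several S phase genes were deeper than the others, with a median of 4511 UMIs against 3238, and had a median mitochondrial share of 2.68% against 3.23%. They held 4.75% of all UMIs and 27.4% of the UMIs of the members. Per 10000 UMIs the members summed to 48.1 in these cells and 6.35 in the other 1985. When every cell with at least 2000 UMIs was thinned to 2000, only 21 of 1756 cells (1.20%) still held 10 members, and with the number chosen again by the same rule at that depth, 7 members, 47 cells did (2.68%). Without the 5 members found in over 10% of cells, 38 cells (1.85%) held at least 10 of the other 35. The share of cells with several S phase genes thus depended on depth and on the members counted, and it is not a share of cells in S phase.

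Joint detection was also measured for each pair of members as the number of cells with both over the number that depth would give. Of 780 pairs, 619 had at least 1 expected cell. The ratio had a median of 2.03 and was at least 2 for 313 pairs (50.6%), against 1.34% of the 42032991 pairs among all genes found in at least 20 cells. Here and below, the pairs of all genes were not matched to the member pairs for expected cells, on which the share depends. The highest ratio was that of Clspn, which encodes the checkpoint adaptor claspin, and Rad51ap1, which encodes a factor of recombination repair, with 11 cells against 1.04 expected. Uhrf1 and Hells, both of which act on DNA methylation and chromatin at new DNA, were found together in 20 cells against 3.78. The helicase gene Mcm5 and Ung, which encodes uracil-DNA glycosylase, shared 14 cells against 2.23. Mcm2 and Mcm6, subunits of the same helicase, shared 30 cells against 8.53. At the other end, Dscc1 and Nasp were found together in no cell where 2.38 were expected.

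The pairs of Rrm2 depended on how depth was taken into account. From UMI shares, Pcna and Rrm2 were found together in 73 cells against 110 expected, since the many UMIs per cell of Rrm2 raise its expected number of cells. When the expectation for each gene was set to the number of cells in which it was found, a setting chosen after seeing the data, the same 73 cells stood against 44.8 (ratio 1.63), and Rrm2 and Slbp shared 56 cells against 36.3 (1.54) where the UMI shares had given 83.3. Under this setting 352 of 591 pairs (59.6%) had a ratio of at least 2, with a median of 2.47, against 1.54% of the pairs of all genes. Over the pairs of each member the median was then highest for Uhrf1 (4.38), Rrm2 (4.28), Ccne2 (4.20) and Brip1 (4.14), a helicase of DNA repair. It was lowest for Casp8ap2 (1.25), a factor of histone gene expression, Ubr7 (1.33), a histone ubiquitin ligase, and Slbp (1.38).

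To ask which members are particular to cells with several S phase genes, each member was left out in turn, cells were chosen by the other 39, and its UMIs per 10000 were compared between the cells with at least 10 of the others and all other cells. All 36 compared members had a ratio of at least 2, with a median of 8.42 and a range of 2.38 to 41.5, and for 33 the lower limit of the counting interval was also at least 2. Among 9369 genes outside the list, 9.77% had a ratio of at least 2, 11.6% had a ratio of at most 0.5 and the median was 0.980. All 36 ratios stayed at 2 or above with 9, 11 or 12 members required, in cells with at most 5% mitochondrial UMIs and without the deepest 5% of cells. At 2000 UMIs per cell 28 members could be compared, and 27 of them did, all but Pold3 (1.55).

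The 3 genes of deoxynucleotide supply had a median ratio of 17.8. Rrm2 had 5.11 UMIs per 10000 in 65 cells with several of the other members and 0.123 in the other 1990, a ratio of 41.5 (interval 31.8 to 54.7), and was found in 78.5% and 2.96% of these cells. The ratio was 27.2 with 12 members required and 25.4 without the members found in over 10% of cells. Of its last 300 transcript bases, where the 3' reads fall, 7.06% of the 98-base sequences also occur in the annotated gene Gm48445, and reads that fall there could belong to either gene. Tyms, which encodes thymidylate synthase, had 1.45 against 0.0812 UMIs per 10000 (17.8-fold) and was found in 47.8% and 2.57% of the cells. Rrm1, which encodes the large subunit of ribonucleotide reductase, had 1.83 against 0.204 (8.96-fold). The large subunit was found in 6.23% of the cells without several of the other members, more than the small subunit.

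Of the checkpoint and repair genes 8 were compared, with a median ratio of 12.7. Brip1 (30.3-fold, interval 14.2 to 66.8), Clspn (27.8-fold) and Rad51ap1 (25.6-fold) were each found in at most 1.11% of the other cells and in 22.1%, 31.9% and 25% of the cells with several of the other members. Wdr76, a gene of a WD repeat protein, was at 13.2-fold, the helicase gene Blm at 12.2-fold (6.09-fold with 12 members required) and Ung at 9.83-fold. Tipin, which encodes a fork protection factor, was at 6.16-fold and Usp1 at 3.32-fold, with Usp1 found in 15.4% of the other cells. Of the Usp1 3' sequences, 6.73% are shared with the annotated gene Gm5841.

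The members that regulate the passage from G1 into S were also high. Ccne2 (chromosome 4, 11191351 to 11204779) had 1.20 against 0.0305 UMIs per 10000, a ratio of 39.5 (interval 22.8 to 70.6), and was found in 39.7% and 0.956% of the cells. E2f8, which encodes an E2F repressor, had a ratio of 14.5 on 24 UMIs (interval 5.75 to 35.0).

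The genes of origin licensing, helicase and initiation had ratios from 5.82 to 14.8 over 7 compared members, with a median of 7.64. Cdc45, the helicase activator, was at 14.8-fold (interval 6.86 to 31.1), which fell to 5.67-fold with 11 members required, 4.11-fold with 12 and 3.87-fold without the members found in over 10% of cells. The helicase genes Mcm2, Mcm5, Mcm6 and Mcm4 were at 9.14, 8.38, 6.83 and 6.70, and the GINS subunit gene Gins2 lay among them at 7.64. The intervals of these 5 genes overlap, so their order was not resolved. Geminin, which holds licensing back once S phase has begun, was lowest with a ratio of 5.82 for Gmnn, which was found in 64.6% and 10.3% of the cells.

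The genes of the fork polymerases, clamp and single-strand binding had ratios of 3.73 to 9.95 with a median of 6.16 over 7 members. Prim1, the primase, was at 9.95-fold on 34 UMIs, the flap nuclease gene Fen1 at 8.46-fold and Rpa2, a subunit of the single-strand binding protein, at 7.85-fold. Counted by 3' UMIs, which need no division by transcript length, Pcna had the highest level of any member in both kinds of cell, 7.57 UMIs per 10000 in the cells with several of the other members and 1.39 in the other cells, a ratio of 5.45 (interval 4.70 to 6.30). It was found in 88.9% of the former and 34.3% of the latter, so a UMI of Pcna by itself did not mark a cell with several S phase genes. Pola1, the catalytic subunit of the polymerase that extends primers, was at 6.16-fold and Pold3, a subunit of the lagging strand polymerase, at 4.47-fold. Rfc2, a subunit of the loader of the clamp, was lowest at 3.73-fold.

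The genes of histone supply and chromatin had ratios from 2.38 to 19.3 over 9 members, with a median of 5.28. Uhrf1 was highest (19.3-fold, interval 12.2 to 30.5), followed by Chaf1b (16.6-fold), a subunit of the assembly factor that puts histones onto new DNA, and Hells (14.4-fold). Atad2, which encodes a chromatin ATPase with a bromodomain, was at 7.25-fold and Cdca7, which encodes a partner of Hells, at 5.28-fold on 24 UMIs. Slbp (4.06-fold, 4.04 against 0.996 UMIs per 10000), Nasp (3.82-fold), Casp8ap2 (2.59-fold) and Ubr7 (2.38-fold, interval 1.05 to 4.75) were lowest. Slbp was found in 27.7% and Nasp in 12.0% of the other cells. Of the 9 members with an E2F word, 7 were compared, and their ratios ran from 2.59 for Casp8ap2 to 19.3 for Uhrf1.

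**Figure D2:**
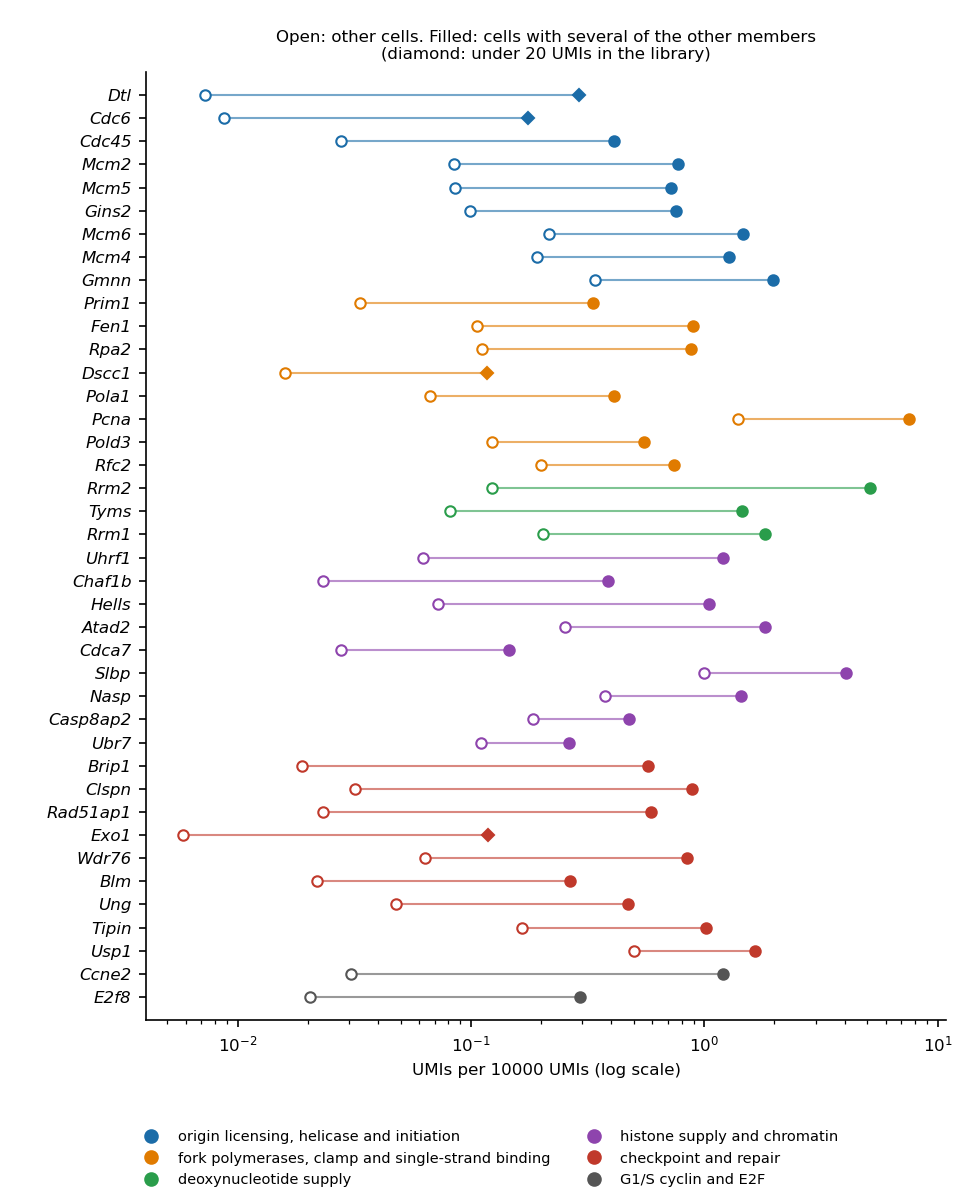
UMIs per 10000 UMIs (x axis, log scale) of each S phase gene (y axis, grouped and coloured by role) in cells with at least 10 of the other 39 members (filled) and in all other cells (open), with diamonds for the 4 members under 20 UMIs. Rrm2 spans the widest gap among the compared members (0.123 to 5.11), and Pcna and Slbp are the only members near or above 1 UMI per 10000 in the other cells.

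The make-up of the S phase transcripts differed between the cells, in part because these were chosen by the same members. Rrm2 took 10.5% of the member UMIs in the cells with several S phase genes and 1.06% in the cells with neither several S phase nor several G2/M genes. Pcna took 16.0% and 21.9%, Slbp 8.25% and 15.9%, and Usp1 3.64% and 7.79%. No cell type without S phase transcripts was at hand in the library, so the part of free RNA in the low level of the other cells was not tested.

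S phase and G2/M genes were then set against each other. The G2/M list held 54 genes of chromosome condensation, the spindle and mitosis, none of them a member, and the same rule gave a number of 15, at which 75 cells were observed and 1.65 expected. Of the 70 cells with several S phase genes, 42 also had several G2/M genes (60%, interval 47.6% to 71.5%), against 33 of the other 1985 cells (1.66%, interval 1.15% to 2.33%). With cells thinned to 2000 UMIs and the original numbers this overlap was 3 of 21 cells (14.3%), and with the numbers chosen again at that depth, 7 and 9, it was 32 of 47 (68.1%). The cells thus fell into 28 with several S phase genes only, 42 with both, 33 with several G2/M genes only and 1952 with neither. Median depth was 4351.5, 5528, 4513 and 3219.5 UMIs in this order.

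The overlap was larger where more members were found. Of the cells with 0 to 5 members, at most 2.07% in any group by number had several G2/M genes. The share was 16.7% of 60 cells with 6 or 7 members, 35.7% of 28 cells with 8 or 9, 53.1% of 49 cells with 10 to 14 and 76.2% of 21 cells with 15 to 21. The G2/M genes summed to 13.9 UMIs per 10000 where no member was found and to 89.7 in the cells with 15 to 21 members. The median depth of these cells was also higher, at 5630 UMIs against 2444.5, and its part in the share of cells was not tested.

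**Figure D3:**
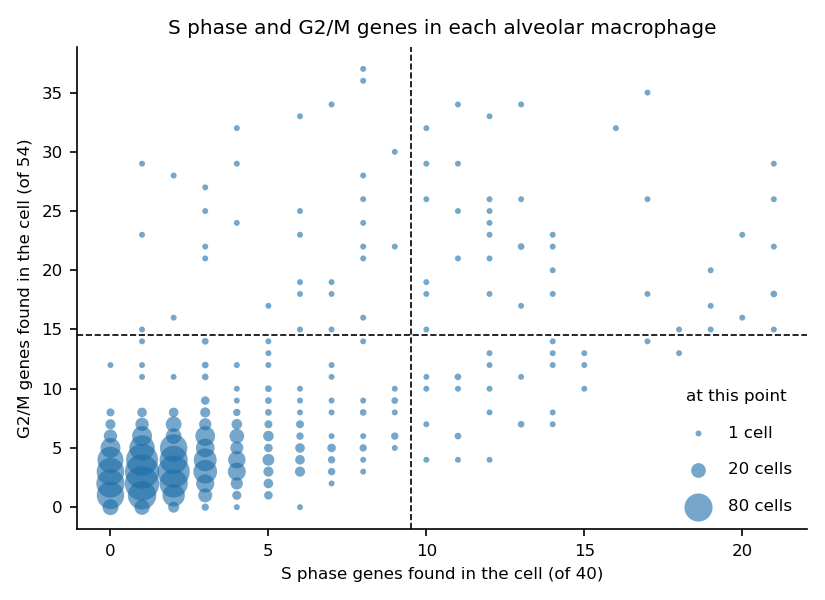
Number of G2/M genes (y axis, of 54) against number of S phase genes (x axis, of 40) found in each AM, with the area of a circle growing with the number of cells at that point. Dashed lines mark 10 S phase and 15 G2/M genes, and of the 103 cells beyond either line 42 lie beyond both.

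In cells chosen by the G2/M genes, with no S phase gene used in the choice, 33 of the 36 compared members had a ratio of at least 2 against the other cells, with a median of 5.57, where 9.37% of 9320 genes outside both lists did. Rrm2 was again highest (32.6-fold), followed by Brip1 (27.1-fold) and Clspn (20.0-fold). The 3 members under 2 were Ubr7 (1.93), Ung (1.65) and Casp8ap2 (1.39). In the cells chosen by the other S phase genes Ung had been at 9.83-fold. The 2 sets of cells overlap, so these values stand side by side without a test.

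Among cells with several S phase genes, the levels of most members could not be told apart between those with and those without several G2/M genes. The ratio of the level in the S phase only cells to that in the cells with both had a median of 0.845 over 36 members, and 16 were higher in the S phase only cells. The counting interval lay above 1 for 1 member and below 1 for 7, against 2.23% and 2.03% of 9320 genes outside both lists. Those genes were not matched to the members for UMIs in these cells, so the shares are not on equal terms. The 1 member of 36 above is near the 2.23% of genes outside both lists, so its place there is not a result about the members. Ung, the member above, was found in 9 of 27 S phase only cells and in 4 of 42 cells with both. It was found in none of 33 G2/M only cells, which at a floor of 3 cells allows a share of up to 9.09%. The lower limit of its level in the cells with both over that in the G2/M only cells was 0.473, so these groups could not be told apart. Its levels were 0.965 and 0.186 UMIs per 10000 in the S phase only cells and the cells with both (ratio 5.20, interval 1.57 to 22.1).

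The 7 members below were Rrm2 (0.639), Atad2 (0.463), Gmnn (0.442), Slbp (0.400), Usp1 (0.350), Tipin (0.243) and Brip1 (0.200). Slbp was found in 12 of 26 S phase only cells, in 31 of 37 cells with both and in 19 of 38 G2/M only cells. Tipin was found in 4 of 26, 16 of 42 and 5 of 33 cells of these groups. Each of the 36 members was higher in the cells with both than in the G2/M only cells, for 16 with an interval above 1. The cells with both were chosen by having more of the other members, so higher levels there follow in part from the choice. No share over genes outside the lists was computed for this comparison. Between the S phase only cells and the cells with both, which members lay on either side depended on the number of G2/M genes required. Rrm2, Slbp, Tipin and Usp1 stayed below with 13 and with 17, whereas Brip1 did in neither case (0.289 and 0.717), Gmnn not with 13 (0.529) and Atad2 not with 17 (0.624). Tyms was also below with 13 (0.427). No member lay above with 13, where Ung was at 2.49, and with 17 Ung (8.80), Chaf1b (4.28) and Mcm6 (2.16) did. At 2000 UMIs per cell, with the numbers chosen again, no interval lay on either side of 1, on fewer UMIs (10 and 40 for Rrm2 in the S phase only cells and the cells with both, in place of 44 and 119). There Gmnn was at 1.09, Slbp at 0.966, Atad2 at 0.690, Usp1 at 0.560, Rrm2 at 0.519, Brip1 at 0.427 and Tipin at 0.413, and Ung was at 1.52.

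**Figure D4:**
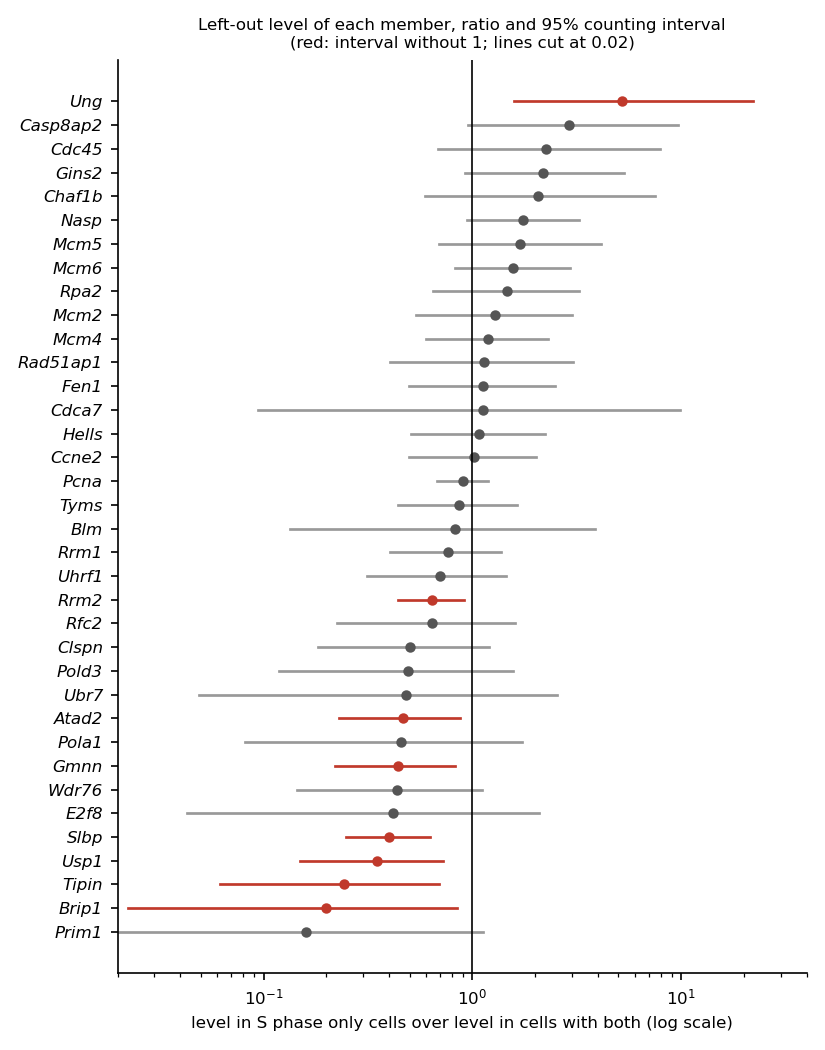
Level of each of the 36 compared members in S phase only cells over its level in cells with both several S phase and several G2/M genes (x axis, log scale), with 95% counting intervals and each member left out when cells were chosen. Ung lies above 1, and Rrm2, Atad2, Gmnn, Slbp, Usp1, Tipin and Brip1 lie below it, at full depth.

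**Figure D5:**
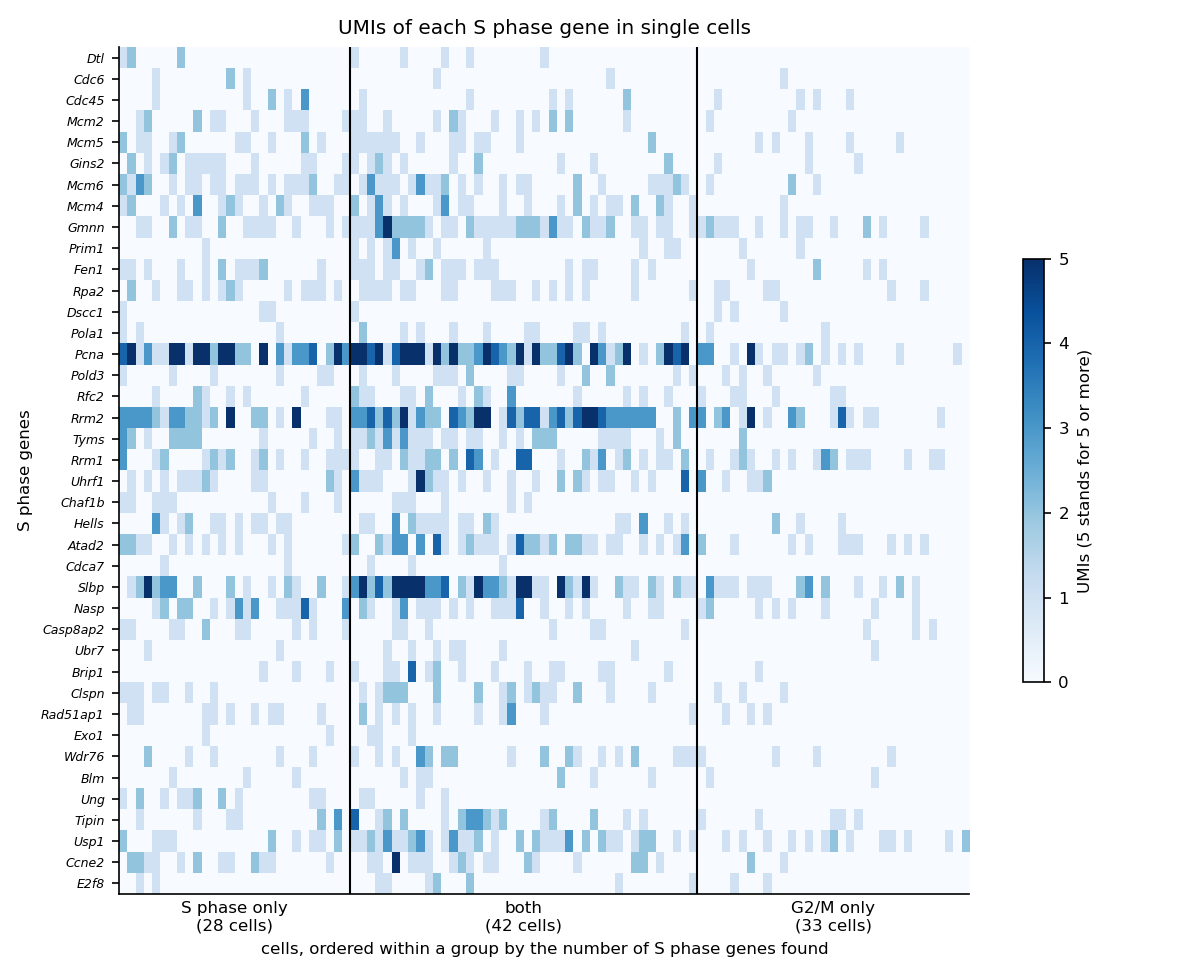
UMIs of each of the 40 S phase genes (rows, ordered by role) in the 103 cells (columns) with several S phase genes only (28), with both (42) and with several G2/M genes only (33), ordered within a group by the number of members found. Pcna, Rrm2 and Slbp form the darkest rows, and most other members appear as 1 or 2 UMIs in part of the cells.

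Other genes of DNA replication that are not members were also higher in the cells with several S phase genes. Of 47 listed genes 37 were compared, and 35 had a ratio of at least 2, with a median of 5.89. The highest were 2810417H13Rik, the gene of a PCNA-associated factor (36.3-fold), the histone gene Hist1h2ap (31.1-fold), Ccne1, which encodes cyclin E1 (24.1-fold), and the histone chaperone gene Asf1b (22.9-fold). Of 54 G2/M genes 49 were compared and 46 had a ratio of at least 2, with a median of 7.77, led by Nusap1 (23.7-fold), Kif11 (22.2-fold), Kif2c (21.9-fold) and Ndc80 (21.7-fold), which act on the spindle or its attachment to chromosomes. Both counts are read against the 9.77% of genes outside the list.

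The cells with several S phase genes had the marker genes of AMs. Chil3 and Cd9 were found in 100% of them and in 100% of the other cells. Ear2 was found in 100% and 98.7%, Lpl in 100% and 97.5%, and Mrc1 in 97.1% and 92.6%. Siglecf, which encodes a protein used in the sort, was found in 48.6% of the 70 cells and 41.1% of the other cells. The ratios of the 17 AM markers compared ran from 0.684 (Car4) to 1.24 (Marco), with a median of 0.833. None was at least 2 or at most 0.5, where 9.77% and 11.6% of genes outside the list were. Those genes were not matched to the markers for UMIs, so the count is not a result about the markers. The summed level of the AM markers ran from 142 to 620 UMIs per 10000 in the 70 cells (median 265). In the other cells it ran from 32.9 to 1128 (median 325). Of 10 lymphocyte and 6 dendritic cell markers only 2 each were in the library, Cd79a (13 UMIs) and Ms4a1 (9), and Ccr7 (15) and Zbtb46 (2). None had a UMI in the 70 cells, which on so few UMIs says little. The sums of these lists reached 28.7 and 59.7 UMIs per 10000 in an other cell. Of the 5 monocyte and interstitial macrophage markers, C1qa, C1qb and Plac8 had none, Ccr2 and Cx3cr1 had 1 UMI each, and the sum reached 1.97 in the 70 cells and 42.7 in the others. The neutrophil markers S100a8 and Csf3r ran from 0 to 4.74 and from 0 to 110 UMIs per 10000, with 0.321 and 0.485 over all cells of each kind. The epithelial and endothelial markers ran from 0 to 21.1 and from 0 to 34.2, with 3.62 and 3.48 over all cells, most of it Epcam, which was found in 67.1% and 57.7% of the cells. Of the 3 compared, Epcam had a ratio of 0.936, Sftpc of 1.51 and Scgb1a1 of 1.77. Scgb1a1 was found in 15.7% of the 70 cells and in 5.14% of the others. Of the 7 genes of these lists with at least 20 UMIs, 0 had a ratio of at least 2. Beside the 9.77% of genes outside the list, this count is not a result about them. Csf3r alone had a ratio of at most 0.5 (0.304, with 1 of its 67 UMIs in the 70 cells), as did 11.6% of genes outside the list.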

How the data were processed

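Reads were aligned to mm10 and UMIs counted by the authors in Cell Ranger 2.1, and the authors deposited natural log values of 1 plus UMIs per 10000 (LogNormalize of Seurat in R 3.3.2). The authors also deposited a scaled score per gene and cell, regressed on UMIs and mitochondrial content. Their methods describe the removal of cells over 5% mitochondrial content, yet 384 cells of the files lie above it, and of cells with very many genes. No doublet caller was run here. The removal of log and scaling gave whole UMIs for 100% of the values (tolerance 0.001), with 528 to 2495 genes per cell.

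A gene of share s was expected in a cell of N UMIs with a probability of 1 minus exp of -sN, and the number of members per cell followed from these probabilities. "Several" is the smallest number whose expected cells were at most 5% of those observed. Levels are UMIs of a gene over all UMIs of a group of cells, and genes with at least 20 UMIs were compared, at a ratio of 2. Intervals are exact (Clopper-Pearson). There is 1 library, so no test was made. The steps were run on simulated cells of the same depths and gene shares. These differed from each other only by counting and, in 1 simulation, by a set rise of chosen genes in some cells. They do not show how the steps behave where real cells vary in other ways. Members and lists were chosen with earlier results of these data known. All 40 members are named. Of other lists up to 4 genes with the highest ratio are named (for marker lists also those lowest, or the defining ones), and of all other genes the 10 highest found in at least 10% of the cells with several S phase genes and the 5 lowest found in at least 10% of the other cells. Of the 10, 2 are not reported here. Gene positions come from GENCODE M21 and promoters from RefSeq, both on GRCm38. Python 3.11.15, numpy 2.4.6, scipy 1.17.1 and pandas 2.3.3 were used.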

Additional observations from a re-analysis of the deposited data

How the results depend on the processing

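No paired analysis was possible because there is 1 library. The share of cells with several S phase genes, 3.41%, was 2.43% with 12 members required, 1.20% in cells thinned to 2000 UMIs, 1.85% without the 5 members found in over 10% of cells, 1.41% without cells with several G2/M genes and, chosen after seeing the data, 4.77% with the expectation taken from cells with neither. It was within its counting interval with 9 or 11 members, at most 5% mitochondrial UMIs, without the deepest 5% of cells, with the expectation matched to the cells found and with the number chosen again at 2000 UMIs. The overlap with G2/M genes, 60%, was 14.3% at 2000 UMIs with the original numbers and between 55% and 68.1% otherwise. The median share of cells over the members, 3.65%, was 2.16% at 2000 UMIs. The share of pairs with a ratio of at least 2, 50.6%, was 35.8% among pairs with at least 3 expected cells, 56.0% with no minimum, 45.7% at 2000 UMIs, 30.4% without cells with several G2/M genes, 59.6% with matched expectation and 10.4% in cells with neither. Fewer UMIs or cells are part of the construction of the thinned values; for the others the cause was not tested. The number of compared members with a ratio of at least 2 was 27 of 28 at 2000 UMIs (28 of 28 with the number chosen again), 31 of 33 without cells with several G2/M genes, 33 of 36 with cells chosen by G2/M genes and all of 36 or 40 otherwise, and 34 of 36 had a ratio of at least 3 or a scaled score at least 0.5 higher. No ratio of a member turned below 1.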

Other observations

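Outside the list, the highest ratio between the cells with several S phase genes and the other cells was that of Lrr1, a substrate receptor for the unloading of the helicase, which had 22 of its 28 UMIs in the 70 cells (73.6-fold, interval 28.9 to 222). Esco2, the cohesin acetyltransferase of S phase, was at 56.2-fold and was found in 41.4% of the 70 cells and 0.655% of the others. The mitotic kinase gene Pbk followed at 44.2-fold, then 2810417H13Rik at 36.3-fold, Depdc1a at 35.1-fold, Ccna2, which encodes cyclin A2, at 33.9-fold, Tcf19 at 33.0-fold and the kinase gene Melk at 31.8-fold. The lowest ratios were those of Tcp11l2 (0.142), G6pdx (0.156), the histone gene Hist1h2bc (0.191), Cers6 (0.226) and Vsir (0.240). Hist1h2bc, which was found in 41.2% of the other cells and in 14.3% of the 70 cells, thus went the other way from Hist1h2ap, at 0.350 against 1.84 UMIs per 10000. Hist1h2bc encodes a histone H2B and Hist1h2ap a histone H2A, and each is a single gene of its own family of similar copies. How the reads were split among the copies of each family was not tested.

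Of 17 D cyclins, their kinases and cell cycle inhibitors 15 were compared, with a median ratio of 1.01, and 4 had a ratio of at least 2, against 9.77% of genes outside the list, namely Cdkn2c (13.4-fold), Rbl1 (3.64-fold), Cdkn2d (2.70-fold) and Cdk4 (2.53-fold). Of these Cdkn2c and Cdkn2d encode inhibitors of the D cyclin kinases, and Rbl1 encodes a relative of the retinoblastoma protein. Ccnd2, found in 77.1% and 71.4% of the cells, was at 0.683 and the inhibitor gene Cdkn1b at 0.416 (outside the rule for named genes and chosen after their values were seen). Of the 4 MHC class II genes and 7 chemokine and TNF genes, Ccl4 alone had a ratio of at least 2 (2.60), to be read against the same 9.77%. Cxcl3 alone had a ratio of at most 0.5, to be read against the 11.6% of genes outside the list. It had 0 of its 269 UMIs in the 70 cells, which at a floor of 3 cells allows a share of up to 4.29%. In the other cells it was found in 5.99%.

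In the 1952 cells with neither several S phase nor several G2/M genes, the number of members per cell had a variance of 2.62 against 2.09 expected from depth. The 404 pairs of members with at least 1 expected cell had a median ratio of 1.06, with 57.9% above 1 and 10.4% at 2 or above. Over the 40338968 pairs of all genes in the same cells the median was 0.954, with 36.7% above 1 and 1.29% at 2 or above. A setting chosen after seeing the data, this leaves out the cells in which joint detection was highest by choice. The pairs of all genes were not matched to those of the members for expected cells, so the shares at 2 or above are not on equal terms.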
